A study of Mus musculus with 8 samples.

Results

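Semaphorins and their receptors, the plexins and neuropilins, were followed in whole stomachs of mouse embryos at E13.5. Members were taken by gene name: Sema3 to Sema7 with a letter, the A to D plexins, Nrp1 and Nrp2. The names gave 32 loci of 26747 in the deposited table, for 31 genes: 20 semaphorins in 21 loci, 9 plexins and 2 neuropilins. Sema6d had 2 loci with the same coordinates, and Nrp1 lay in a joined locus that also carries Mir1903. Messenger RNA of 4 stomach libraries carrying Nkx3.2Cre and R26-YAP5SA, called YAP5SA here, was compared with that of 4 wild type stomach libraries. Cre driven from Nkx3-2, a gene of the stomach mesenchyme, switches on YAP5SA at the Rosa26 locus. YAP5SA is a constitutively active YAP, the coactivator that the Hippo pathway normally holds in check. The labels give no sex, no strain and no library with Cre alone, so Cre and YAP5SA cannot be told apart, and they do not say whether a library came from a single embryo or from a pool.

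Semaphorins are ligands that share a sema domain. Class 3 is secreted, classes 4 to 6 span the membrane and Sema7a is held there by a lipid anchor. Most bind plexins directly, whereas most class 3 ligands first bind a neuropilin, which joins a type A plexin in the receptor complex. Plexins carry a GTPase-activating domain that acts on small G proteins of the Ras and Rap group and so changes adhesion and the actin cytoskeleton. In the gut the family is known for guiding nerve fibres and neural crest cells, and elsewhere for patterning vessels.

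The YAP5SA libraries held 7293556 to 8513116 fragments and the wild type libraries 6328344 to 6919353. Profiles correlated at 0.973 to 0.986 within YAP5SA, 0.970 to 0.986 within wild type and 0.936 to 0.955 between genotypes. Barx1, a transcription factor of the stomach mesenchyme, averaged 158 ± 14.2 CPM in YAP5SA and 171 ± 7.64 CPM in wild type (SD, n = 4 each). Of the 6 loci of mesenchyme markers, where Tcf21 has more than 1, 0 were absent. Foxf1a was the 1 mesenchyme marker that fell. CPM is the fragment count scaled to library size. The mouse Yap1 locus averaged 224 ± 13.46 CPM in YAP5SA and 232 ± 7.46 CPM in wild type. Its log2 fold change was −0.05 ± 0.05 (SE, edgeR adjusted p = 0.555). Whether fragments of the transgene are counted at this locus was not tested.

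Every member passed the filter on low counts and was tested. With a threshold of 0.05 on edgeR's adjusted p, 13 of the 32 loci differed between the genotypes, 7 higher and 6 lower in YAP5SA. Over all 14574 loci tested, 18.9% passed the same threshold, 9.06% higher and 9.85% lower. The CPM ranges of the genotypes did not overlap at 12 member loci, against 23.3% of all loci tested. Most of the member changes were small: Plxnb3, a plexin at a very low level, was the 1 member that changed by 2-fold or more. With limma on the authors' FPKM, no call but that of Plxnb3 was kept when low loci stayed in, and Sema4b and Sema4c lost theirs when low loci were left out. The rising members were the ligands Sema3a, Sema3b, Sema5b and Sema6a and the receptors Nrp1, Plxna1 and Plxna2. The falling members were the ligands Sema3c, Sema4b, Sema4c and Sema4g and the receptors Plxnb1 and Plxnb3.

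**Figure D1:**
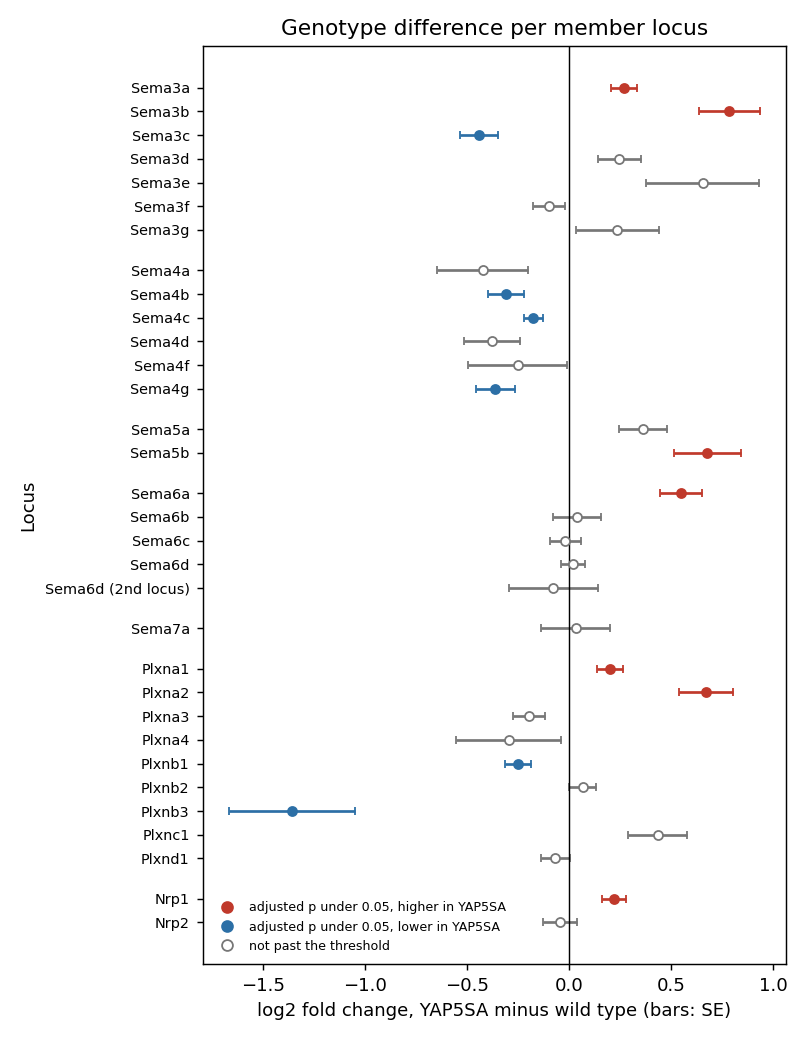
Log2 fold change (x axis, YAP5SA minus wild type, with SE bars) of each of the 32 member loci, grouped by class. Filled points passed the threshold of 0.05 on edgeR's adjusted p, 7 to the right of 0 and 6 to the left, and all 6 class 4 loci lie to the left.

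Cell type markers moved between the genotypes too. Summed over 6 markers, gastric epithelium stood at 402 to 523 CPM in YAP5SA and 657 to 788 CPM in wild type, with 6 of 6 lower. The 7 loci of enteric neurons summed to 205 to 268 CPM in YAP5SA and 433 to 503 CPM in wild type, with 7 of 7 lower. Enteric glia and neural crest, smooth muscle and mesothelium had 5 of 7, 4 of 6 and 2 of 5 loci lower and 0 higher. Macrophage markers rose at 4 of 5 loci, with sums of 276 to 369 CPM in YAP5SA and 202 to 230 CPM in wild type. Endothelium summed to 586 to 663 CPM in YAP5SA and 499 to 592 CPM in wild type, where Kdr rose, 0 of 6 fell, and the other 5 had log2 fold changes from −0.08 to 0.11. Of 3 liver markers Alb and Afp rose, while Ttr averaged 28.2 CPM in YAP5SA and 36.4 CPM in wild type and did not pass. Of 3 skeletal muscle markers Myog and Myod1 rose and Ttn did not pass. In whole tissue, fewer cells of a type and less RNA per cell cannot be told apart, and the part of these markers in the results below was not tested.

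Promoter sequence was looked up for the members that moved, because YAP acts through DNA-bound TEAD factors. The RefSeq table (GRCm38.p6) matched 26 of the 31 genes, with 37 promoters, and 10 of the 13 members that passed the threshold. The 250 bases before each start were searched on both strands for GGAATG, the core letters of a TEAD motif, and for TGANTCA, the letters of an AP-1 motif. GGAATG ends in TG and TGANTCA begins with TG, so matches may overlap. GGAATG occurred in 3 of the 37 member promoters (8.11%) and in 12.64% of all 32851 promoters of that length. TGANTCA occurred in 3 member promoters (8.11%) and in 6.75% of all. Neither was found in the 4 promoters of members that rose, and each was found in 1 of the 8 promoters of members that fell. Some of these promoters lie inside the deposited locus, such as that of Sema3a (chr5:13396534-13396783), whose locus starts at 13125637. A match is a description of letters and not of binding. The upstream bases of Plxna2 (chr1:194619579-194619828, plus strand) and Sema5b (chr16:35541112-35541361, plus strand) are shown as the matched promoters of the members that rose most, beside those of Plxnb1 (chr9:109095186-109095435, plus strand), where GGAATG is in capitals.
Plxna2: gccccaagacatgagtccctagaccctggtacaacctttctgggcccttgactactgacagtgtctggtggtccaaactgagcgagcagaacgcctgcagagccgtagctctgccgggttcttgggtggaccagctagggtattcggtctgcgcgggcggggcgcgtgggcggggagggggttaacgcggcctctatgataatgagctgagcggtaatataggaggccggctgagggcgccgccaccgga
Sema5b: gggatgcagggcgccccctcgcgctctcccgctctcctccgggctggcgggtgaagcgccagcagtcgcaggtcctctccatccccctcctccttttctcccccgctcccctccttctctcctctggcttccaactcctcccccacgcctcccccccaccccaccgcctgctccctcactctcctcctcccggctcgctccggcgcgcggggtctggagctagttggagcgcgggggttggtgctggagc
Plxnb1: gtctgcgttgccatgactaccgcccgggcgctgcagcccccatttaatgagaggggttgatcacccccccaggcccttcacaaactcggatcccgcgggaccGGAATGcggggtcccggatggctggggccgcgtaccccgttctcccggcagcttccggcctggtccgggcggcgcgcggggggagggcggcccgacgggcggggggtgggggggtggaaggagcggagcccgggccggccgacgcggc
All 3 were rich in G and C, at 62.8%, 72.0% and 75.2% of the bases, with 18, 19 and 30 CG pairs. The first G of the Plxnb1 match lay 148 bases before the RefSeq start, which is inside the deposited locus and not at its edge.

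The highest levels per length of transcript were those of receptors. Levels per length are given as the authors' FPKM (fragments scaled to transcript length and library size). Plxnb2, the plexin bound by Sema4c and Sema4g, was the highest member in both genotypes, at 69.6 ± 5.24 FPKM in YAP5SA and 66.1 ± 3.39 FPKM in wild type (SD, n = 4 each, as for every mean below). Nrp2, which prefers Sema3f, followed at 46.3 ± 4.09 FPKM in YAP5SA and 47.2 ± 4.62 FPKM in wild type. Nrp1, Plxnd1, Plxna1 and Plxnb1 filled the next places among receptors, and Plxnb3 came last with 0.262 ± 0.113 FPKM in YAP5SA and 0.676 ± 0.035 FPKM in wild type. In YAP5SA, Nrp1 at 43.0 ± 1.75 FPKM stood above Plxnd1 at 36.7 ± 2.31 FPKM. In wild type, Plxnd1 (38.1 ± 3.39 FPKM) and Nrp1 (36.5 ± 2.62 FPKM) lay within their SD of each other, as did Plxnb1 (31.0 ± 1.74 FPKM) and Plxna1 (30.7 ± 2.23 FPKM).

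The most abundant ligand was Sema3f, at 33.9 ± 3.11 FPKM in YAP5SA and 36.0 ± 2.93 FPKM in wild type. Sema4c was second in both genotypes, at 29.7 ± 1.80 FPKM in YAP5SA and 32.7 ± 0.602 FPKM in wild type. Behind them the order differed. Sema5a, Sema6a and Sema3d came next in YAP5SA, at 25.7 ± 4.31, 25.5 ± 0.858 and 25.1 ± 2.14 FPKM. Sema3c ranked 7 in YAP5SA at 20.7 ± 3.40 FPKM but 3 in wild type at 27.9 ± 0.732 FPKM. The lowest ligands were Sema4f in YAP5SA (3.71 ± 0.702 FPKM) and Sema3e in wild type (3.04 ± 0.603 FPKM). All ligands summed to 299.9 to 326.6 FPKM per YAP5SA library and 291.7 to 307.6 FPKM per wild type library, and all receptors to 281.6 to 319.7 FPKM in YAP5SA and 272.6 to 310.8 FPKM in wild type. Both sums overlapped between the genotypes.

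**Figure D2:**
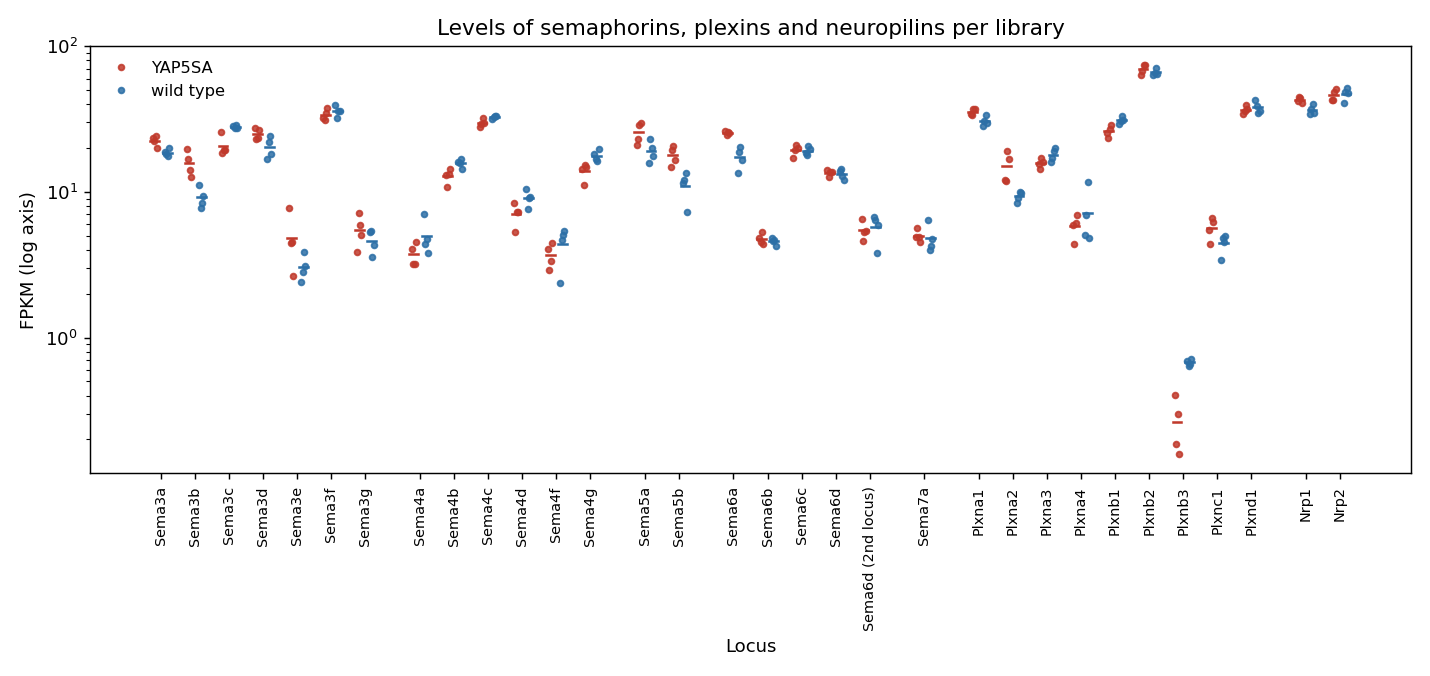
FPKM of each member locus in every library (log axis; points are libraries, short lines are means), YAP5SA left of wild type. Plxnb2 is highest at means of 69.6 FPKM in YAP5SA and 66.1 FPKM in wild type, and Plxnb3 lies below 1 FPKM in all 8 libraries.

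Among the 7 secreted class 3 ligands, Sema3a and Sema3b rose, Sema3c fell and 4 did not pass the threshold. Sema3a (chr5:13125637-13606177, mm10 as all coordinates of loci here), a repellent of growing axons that acts through Nrp1, had 172, 161, 175 and 145 CPM in YAP5SA replicates 1 to 4, against 136, 137, 127 and 142 CPM in wild type replicates 1 to 4. The ranges did not overlap, although YAP5SA replicate 4 came close to the highest wild type library. Sema3a rose by a log2 fold change of 0.27 ± 0.06 (SE, edgeR adjusted p = 0.0155).

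Sema3b (chr9:107597960-107609241), another neuropilin ligand, rose more in relative terms. It had 59.1, 51.0, 43.0 and 38.1 CPM in YAP5SA, against 33.7, 23.7, 25.5 and 28.3 CPM in wild type. Each YAP5SA library lay above each wild type library, and the YAP5SA libraries spread widely. The fold change was 1.72, or 0.79 ± 0.15 on the log2 scale (edgeR adjusted p = 0.00474).

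Sema3c (chr5:17574816-17730267), which is known for guiding neural crest cells into the outflow tract of the heart, fell. It had 124, 88.8, 93.0 and 93.8 CPM in YAP5SA, against 137, 133, 140 and 133 CPM in wild type. The wild type libraries lay close together, and YAP5SA replicate 1 lay nearer to them than the other YAP5SA libraries did. Its log2 fold change was −0.44 ± 0.09 (edgeR adjusted p = 0.00856). Sema3a and Sema3c lie with Sema3d and Sema3e in 1 stretch of chromosome 5 (12383113 to 17730267), in which Sema3a rose and Sema3c fell.

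The other class 3 ligands did not pass. Sema3d, a guide of axons and endothelial cells, averaged 149 ± 13.7 CPM in YAP5SA and 126 ± 20.3 CPM in wild type (log2 fold change 0.25 ± 0.11, edgeR adjusted p = 0.138). Without wild type replicate 3 its edgeR adjusted p was 0.0187. Sema3e, which binds Plxnd1 without a neuropilin, had 52.0, 30.4, 30.4 and 17.8 CPM in YAP5SA, against 16.4, 19.4, 26.2 and 21.0 CPM in wild type. YAP5SA replicate 1 was the highest library and YAP5SA replicate 4 fell within the wild type range, so the log2 fold change of 0.66 ± 0.28 did not pass (edgeR adjusted p = 0.133). It was 0.88 without YAP5SA replicate 4 (edgeR adjusted p = 0.0294) and 0.34 without YAP5SA replicate 1 (0.3205). Sema3f and Sema3g, both ligands of Nrp2, had log2 fold changes of −0.10 ± 0.08 and 0.24 ± 0.20. Summed over the 7 loci, class 3 stood at 123.3 to 139.7 FPKM in YAP5SA and 115.8 to 122.6 FPKM in wild type.

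Class 4 was the class in which every locus had a lower mean in YAP5SA: 3 of its 6 loci fell, 0 rose, and the other 3 did not pass. These ligands span the membrane and mostly bind type B plexins. Sema4g (chr19:44989315-45003396), a ligand of Plxnb2, had 59.4, 46.3, 63.0 and 60.9 CPM in YAP5SA, against 75.2, 71.0, 67.6 and 81.3 CPM in wild type. Its ranges did not overlap, and YAP5SA replicate 2 was the lowest library. Sema4g had a log2 fold change of −0.36 ± 0.10 (edgeR adjusted p = 0.0262), and the call was lost without wild type replicate 1, 2 or 4 (0.0652, 0.05765 and 0.0701).

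Sema4b (chr7:80186841-80226524) had 49.2, 41.3, 50.2 and 54.7 CPM in YAP5SA, against 61.5, 61.0, 64.2 and 55.3 CPM in wild type. YAP5SA replicate 4 and wild type replicate 4 nearly met. The log2 fold change of −0.31 ± 0.09 passed narrowly (edgeR adjusted p = 0.0329) and was not called without YAP5SA replicate 1, 2 or 3 or wild type replicate 1, 2 or 3, at adjusted p from 0.0579 to 0.0895. Sema4c (chr1:36548642-36560266), the ligand of Plxnb2 best known from cerebellar development, had 105, 110, 118 and 109 CPM in YAP5SA, against 122, 127, 127 and 124 CPM in wild type. The difference was small, at a log2 fold change of −0.18 ± 0.05, but the libraries of each genotype lay close together (edgeR adjusted p = 0.0239). Its call was lost without YAP5SA replicate 2 or 4 or wild type replicate 2 or 3, at adjusted p from 0.0652 to 0.0784.

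Sema4d, the ligand of Plxnb1 and a regulator of immune cells, averaged 29.5 ± 5.27 CPM in YAP5SA and 38.4 ± 4.77 CPM in wild type. It did not pass by genotype alone (log2 fold change −0.38 ± 0.14, edgeR adjusted p = 0.0857), but did with the replicate number as a block (0.00957) and without YAP5SA replicate 1 (0.0459). Sema4a, an immune semaphorin, and Sema4f had log2 fold changes of −0.42 ± 0.22 and −0.25 ± 0.24. Summed over the class, levels were 62.9 to 75.1 FPKM in YAP5SA and 82.5 to 86.0 FPKM in wild type, with no overlap. The sums of classes 3, 5 and 6 did not overlap either, but were higher in YAP5SA. Class 5 summed to 35.8 to 49.6 FPKM in YAP5SA and 24.8 to 35.0 FPKM in wild type. Class 6 summed to 65.5 to 71.2 FPKM in YAP5SA and 57.5 to 62.4 FPKM in wild type, counting both Sema6d loci. A sum need not stand for each locus. Within class 6, Sema6a averaged 25.5 ± 0.858 FPKM in YAP5SA and 17.3 ± 2.97 FPKM in wild type, and no other locus passed. Within class 3, Sema3c fell. The sums were not tested.

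**Figure D3:**
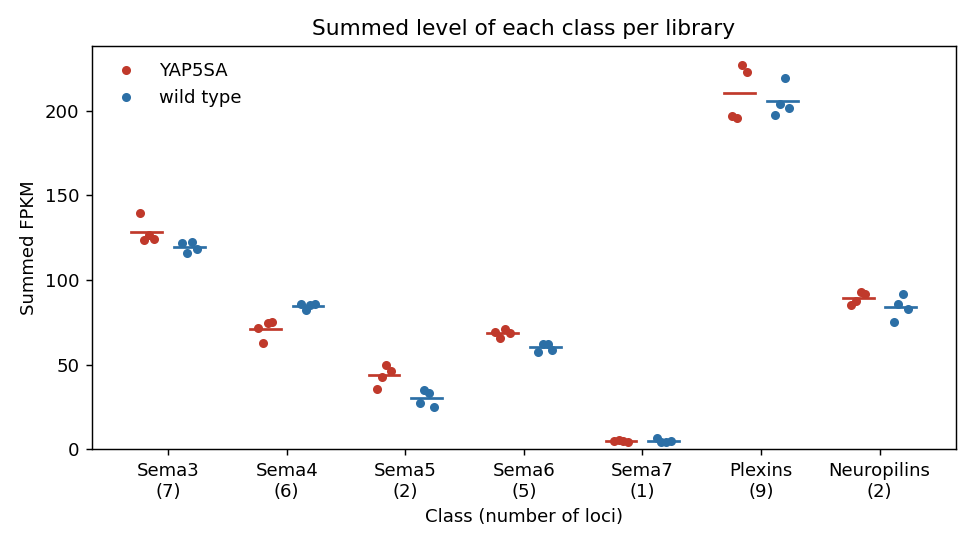
Summed FPKM of each class per library (points, with lines for means; number of loci in brackets), YAP5SA left of wild type. Class 4 stands at 62.9 to 75.1 FPKM in YAP5SA and 82.5 to 86.0 FPKM in wild type. The sums of classes 3, 5 and 6 do not overlap between the genotypes either and stand higher in YAP5SA. In class 6, Sema6a is the only locus past the threshold. The plexin sums overlap at 195.8 to 227.1 FPKM in YAP5SA and 197.6 to 219.2 FPKM in wild type.

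Both class 5 ligands, which carry thrombospondin repeats, had higher means in YAP5SA, and Sema5b passed the threshold. Sema5b (chr16:35541362-35664258) is known for keeping nerve fibres within layers of the retina. It had 64.9, 86.4, 91.3 and 73.7 CPM in YAP5SA, against 51.0, 53.5, 60.0 and 32.7 CPM in wild type. The ranges came within a few CPM of each other, and wild type replicate 4 was far below the rest. Sema5b rose by 0.68 ± 0.17 on the log2 scale (edgeR adjusted p = 0.0168, and 0.0627 without YAP5SA replicate 3). Sema5a, a ligand of Plxnb3, had 227, 213, 277 and 245 CPM in YAP5SA, against 170, 223, 201 and 153 CPM in wild type. Wild type replicate 2 lay inside the YAP5SA range, and the log2 fold change of 0.36 ± 0.12 stayed just short of the threshold (edgeR adjusted p = 0.0544). Small changes moved it across: DESeq2 gave an adjusted p of 0.0155, RLE size factors 0.0494, the filter at 1 CPM 0.0481 and limma-voom 0.0499, and edgeR gave 0.0458 without YAP5SA replicate 2 and 0.0198 without wild type replicate 2.

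Of the 5 class 6 loci, Sema6a alone passed. Sema6a (chr18:47245254-47369227), a transmembrane ligand of Plxna2 and Plxna4 that places neurons and axons, rose. It had 179, 165, 176 and 172 CPM in YAP5SA, against 92.2, 130, 137 and 113 CPM in wild type. The YAP5SA libraries were close together and all above the wild type libraries, of which replicate 1 was lowest. The fold change was 1.46, or 0.55 ± 0.10 on the log2 scale (edgeR adjusted p = 0.00399). Sema6b, Sema6c and the Sema6d loci, ligands of type A plexins, had log2 fold changes between −0.08 and 0.04. Sema7a, whose receptors are Plxnc1 and integrins, averaged 15.6 ± 1.51 CPM in YAP5SA and 15.3 ± 3.44 CPM in wild type (log2 fold change 0.03 ± 0.17).

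Of the neuropilins, Nrp1 rose and Nrp2 did not pass. Nrp1 (chr8:128357661-128505475), the coreceptor of Sema3a and of VEGF, had 246, 262, 256 and 238 CPM in YAP5SA, against 201, 219, 235 and 204 CPM in wild type. The highest wild type library, replicate 3, lay just under the lowest YAP5SA library. Nrp1 rose by a log2 fold change of 0.22 ± 0.06 (edgeR adjusted p = 0.0237), with calls lost without YAP5SA replicate 3 (0.0665) or wild type replicate 4 (0.0678). Nrp2 had 285, 285, 325 and 340 CPM in YAP5SA, against 274, 329, 347 and 323 CPM in wild type. Its ranges overlapped almost fully, at a log2 fold change of −0.04 ± 0.08.

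Type A plexins, the signalling partners of neuropilins, were split. Plxna2 (chr1:194619829-194816868), a receptor of Sema6a, rose 1.59-fold. It had 132, 131, 193 and 183 CPM in YAP5SA, against 88.5, 102, 109 and 102 CPM in wild type. The YAP5SA libraries formed a lower and a higher pair, and both pairs lay above every wild type library. The log2 fold change was 0.67 ± 0.13 (edgeR adjusted p = 0.00545).

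Plxna1 (chr6:89316314-89362613), a receptor for class 3 complexes and for Sema6d, had 305, 305, 332 and 332 CPM in YAP5SA, against 258, 277, 305 and 268 CPM in wild type. It was the 1 member past the threshold whose ranges overlapped. The log2 fold change of 0.20 ± 0.06 passed at an edgeR adjusted p of 0.0463 and was not called without YAP5SA replicate 3 or 4 or wild type replicate 1, 2 or 4, at 0.0743 to 0.124. Plxna3, which acts with Nrp2 downstream of Sema3f, had a log2 fold change of −0.20 ± 0.08 (edgeR adjusted p = 0.110, and 0.0409 with the replicate number as a block). Plxna4 averaged 73.9 ± 13.6 CPM in YAP5SA and 90.6 ± 40.7 CPM in wild type, where replicate 3 stood at 149 CPM, and did not pass.

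**Figure D4:**
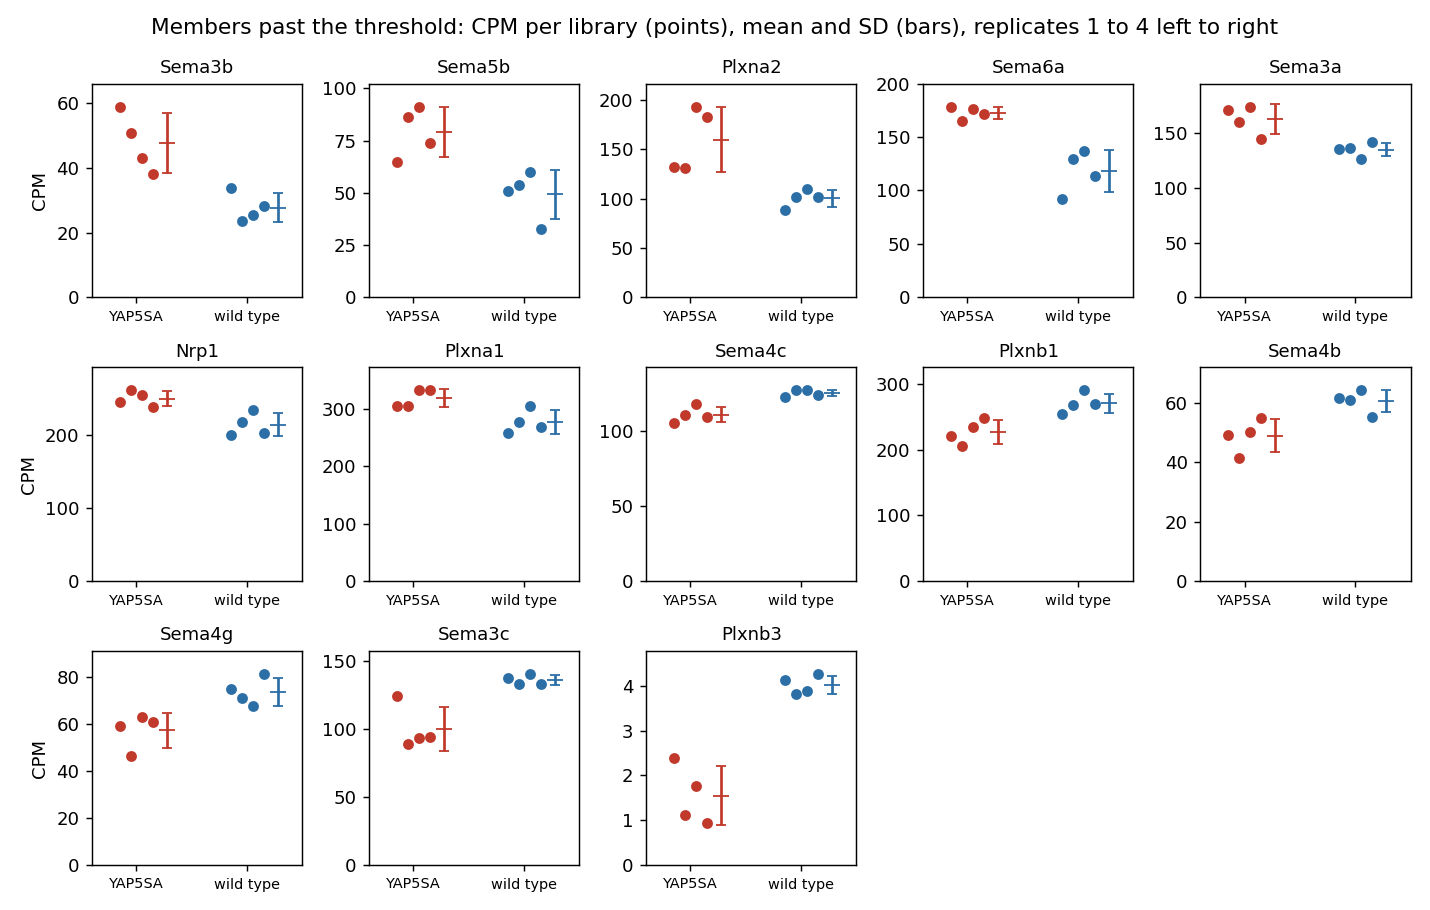
CPM (y axis from 0) of the 13 members past the threshold in each library (points, replicates 1 to 4 from left to right) with mean and SD, YAP5SA left of wild type in each panel. Genotype ranges overlap for Plxna1 and for no other panel, and Plxnb3 stays below 5 CPM in every library.

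Type B plexins, the receptors of class 4, included the fallers among receptors. Plxnb1 (chr9:109094186-109120120), the receptor of Sema4d, had 222, 206, 235 and 248 CPM in YAP5SA, against 255, 268, 291 and 270 CPM in wild type. The ranges were apart by a few CPM between YAP5SA replicate 4 and wild type replicate 1. Plxnb1 had a log2 fold change of −0.25 ± 0.06 (edgeR adjusted p = 0.0216), with calls lost without YAP5SA replicate 2 (0.0745) or wild type replicate 2 (0.0535) or 3 (0.05845).

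Plxnb3 (chrX:73757103-73772510), the receptor of Sema5a, had the largest fold among members and the lowest level. It had 20, 8, 13 and 7 fragments in YAP5SA, against 26, 26, 26 and 27 fragments in wild type, although the YAP5SA libraries were the deeper ones. These are 2.40, 1.11, 1.75 and 0.94 CPM in YAP5SA, against 4.13, 3.82, 3.90 and 4.26 CPM in wild type. The ranges did not overlap, and the wild type libraries were more alike than the YAP5SA libraries. The log2 fold change was −1.36 ± 0.31 (edgeR adjusted p = 0.0117), a level 2.56-fold higher in wild type, and this was the 1 member called in all 18 refits. Plxnb2 had a log2 fold change of 0.07 ± 0.07 and did not pass.

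Plxnc1, the receptor of Sema7a, had 35.2, 28.6, 39.9 and 43.1 CPM in YAP5SA, against 21.9, 30.3, 26.1 and 30.3 CPM in wild type. YAP5SA replicate 2 lay among the wild type libraries. Its log2 fold change of 0.43 ± 0.14 did not pass (edgeR adjusted p = 0.0596), although DESeq2 gave an adjusted p of 0.03945 and edgeR gave 0.0198 without YAP5SA replicate 2. Plxnd1, the vascular receptor of Sema3e, averaged 250 ± 15.9 CPM in YAP5SA and 262 ± 23.0 CPM in wild type, a log2 fold change of −0.07 ± 0.07.

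Ligands and receptors were then set side by side. Of the 21 ligand loci 4 rose and 4 fell, with a median log2 fold change of 0.02, and of the 11 receptors 3 rose and 2 fell, with a median of −0.04. Over all loci tested, 9.06% passed the threshold higher and 9.85% lower, and the median log2 fold change was −0.01. No test of ligands against receptors was made. Of known ligand and receptor pairs, Sema3a and Nrp1 both rose, as did Sema6a and Plxna2. Sema3c, also of the secreted class that mostly binds neuropilins, went the other way from Nrp1, with a log2 fold change of −0.44. The Plxnb2 ligands Sema4c and Sema4g fell, while Plxnb2 had a log2 fold change of 0.07. Several other pairs named above did not both pass. Plxna4, also a receptor of Sema6a, stood at −0.30 and did not pass. Sema5a stood at 0.36, short of the threshold, while its receptor Plxnb3 fell. Plxnb1 fell, while its ligand Sema4d at −0.38 did not pass. Sema3e and Plxnd1 stood at 0.66 and −0.07, and Sema7a and Plxnc1 at 0.03 and 0.43, all short of the threshold. The estimated rise of fragments with depth differed between densities of coverage. Within genotypes, the log-log slope of fragments on library depth, which is 1 where they are proportional, was 1.77 at loci under 0.05 fragments per exonic base and 1.06 from there to 0.15. It was 0.707 from 0.15 to 0.3 and 0.496 above 0.3. These slopes are point estimates without an error, from the depths of the 8 libraries. The part in them of YAP5SA replicate 1, the deepest library, was not tested. The sparsest band holds 11 members, among them Plxnb3 at 0.0029 fragments per exonic base. The band from 0.15 to 0.3 holds Nrp2, Plxna1, Plxnb1, Plxnd1, Sema3f and Sema4c, and Nrp1 has the same density but its joined locus was left out of the slopes. Plxnb2, at 0.397 fragments per exonic base, lies in the densest band. The part of coverage in the results for members was not tested.

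Other genes of semaphorin signalling were read from a list of 53 loci, of which 50 were tested, 14 rose and 11 fell, against 9.06% higher and 9.85% lower of all loci tested. With the replicate number as a block, 12 were higher and 10 lower. The list's median log2 fold change was 0.01. Among 10 receptor partners 3 rose and 4 fell. With the block, the calls of Itga1 (edgeR adjusted p = 0.0701) and Cntn2 (0.0578), both higher, and of Nrcam (0.0758), lower, were lost. The Itga1 locus is a joined locus that also carries Pelo. Kdr, the VEGF receptor that pairs with neuropilins, had 222, 217, 221 and 190 CPM in YAP5SA, against 132, 154, 139 and 128 CPM in wild type (log2 fold change 0.62 ± 0.07, edgeR adjusted p = 0.000323). The adhesion molecules of the L1 group moved the other way. L1cam, which joins Nrp1 in the Sema3a receptor, had 28.4, 14.0, 18.1 and 18.5 CPM in YAP5SA, against 34.5, 37.8, 53.5 and 40.6 CPM in wild type. Its log2 fold change was −1.07 ± 0.21 (edgeR adjusted p = 0.00494). Chl1, a close homologue of L1, fell by 1.25 on the log2 scale, with YAP5SA replicate 1 at 24.9 CPM against 9.66 to 11.1 CPM in the other YAP5SA libraries. Met, the receptor of hepatocyte growth factor and a partner of Plxnb1, fell by 0.80. These falls stand beside the lower neuronal and epithelial markers given above, whose part in them was not tested.

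Of 35 adaptors and effectors tested, 10 rose and 6 fell, beside the shares of 9.06% and 9.85% over all loci. Of the 5 small G proteins of the Ras and Rap group, on which plexins act, Mras and Rras2 rose, with log2 fold changes of 0.80 ± 0.15 and 0.47 ± 0.07 (edgeR adjusted p = 0.00414 and 0.00175). Rras, Rap1a and Rap1b did not pass, at 0.08, −0.19 and 0.04. Also higher were Fes, a kinase downstream of Plxna1, at 0.53 ± 0.10, Rnd3 and Rhod, small G proteins, at 0.27 ± 0.05 and 0.35 ± 0.08, and Limk2, a kinase of the actin regulator cofilin, at 0.38 ± 0.08. Collapsin response mediators, which carry the Sema3a signal to microtubules, were divided. Dpysl2 rose by 0.36 ± 0.08, while Crmp1, Dpysl3, Dpysl4 and Dpysl5 fell by 0.58, 0.26, 0.61 and 0.60 on the log2 scale. Pak1, a kinase activated by Rac, and Rnd2 fell by 0.47 and 0.57. Mical1, an enzyme that oxidises actin downstream of plexins, rose by 0.24 ± 0.06, with its call lost without YAP5SA replicate 3 (edgeR adjusted p = 0.0774) or wild type replicate 3 or 4 (0.0546 and 0.0555). The call of Dpysl5 was lost without YAP5SA replicate 3 or 4 (0.0533 and 0.0599) or wild type replicate 3 (0.0549).

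Of 5 VEGF-family ligands, Figf, which encodes VEGF-D, rose to 22.9, 34.3, 31.6 and 25.2 CPM in YAP5SA, against 15.6, 10.7, 15.7 and 7.74 CPM in wild type (log2 fold change 1.19 ± 0.22, edgeR adjusted p = 0.00421). Pgf, a ligand of Nrp1, fell by 0.56. Vegfa averaged a log2 fold change of 0.07 ± 0.11 and did not pass. Cd72 and Timd2, immune receptors of class 4 semaphorins, were below the filter.

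**Figure D5:**
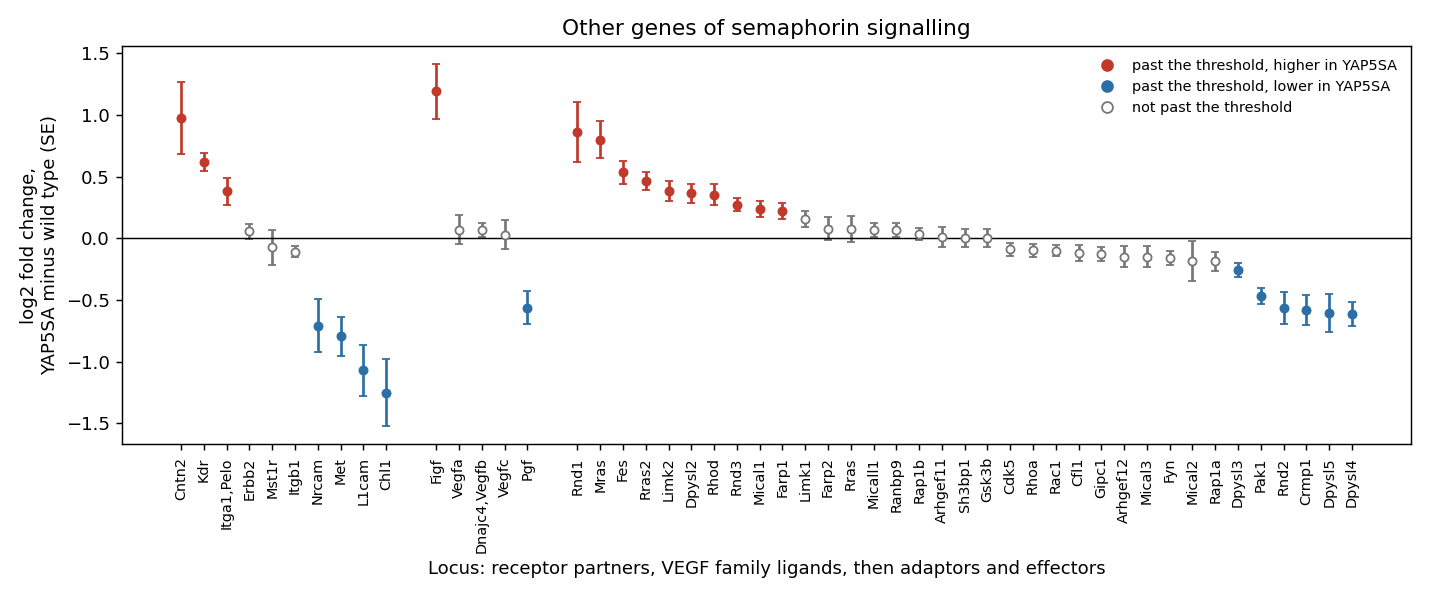
Log2 fold change (y axis, YAP5SA minus wild type, with SE bars) of the 50 tested loci of receptor partners, VEGF-family ligands and effectors. Filled points passed the threshold of 0.05 on edgeR's adjusted p, 14 above 0 with Figf highest at 1.19 and 11 below with Chl1 lowest at −1.25.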

How the data were processed

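Messenger RNA was measured in 8 libraries, 4 YAP5SA and 4 wild type, grouped by the labels. Trizol RNA went into Illumina TruSeq libraries, per the labels' protocols. The submitters' processing notes name mm10, Cuffdiff, Cufflinks 2.2.1 and TopHat2 2.0.9, with no role for each. Strand use and the treatment of duplicates are not given there. The deposited table holds, per the file headers, raw fragments per locus and library, which are estimated counts (10.6% to 11.0% of values not whole), and FPKM scaled between libraries by the authors. The authors' group FPKM equalled the mean of the 4 libraries within 0.01. The file numbers replicates from 0, and this was read as the labels' order from 1.

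Fragments were rounded. Loci without a gene name (3582, with 1.85% to 1.97% of fragments) were left out of library sizes and tests. All 23165 named loci entered edgeR 4.0.16 in R 4.3.3 (TMM, default filterByExpr with 10 fragments and 15 in total, robust quasi-likelihood test, two-sided, genotype as the term), and 14574 passed the filter. Adjusted p is Benjamini-Hochberg over these. The step was tested on simulated data, with counts drawn independently for each library. That test does not cover the shared replicate numbers described next. P-values measure the spread between libraries. Genotypes share replicate numbers, and deviations from the group means correlated at 0.220, 0.143, 0.141 and 0.206 for numbers 1 to 4. Between libraries of unlike numbers the correlations ran from −0.253 to 0.104. The numbers were taken to pair the libraries in the replicate block alone. The main fit, with genotype as its only term, left this pairing out. Coordinates are mm10, and exon lengths are from GENCODE M21. Promoters are RefSeq's on GRCm38.p6, and the table holds none for Plxna1, Plxna4, Sema3b, Sema3f and Sema6a. The precision of a member is set by its fragments, 48 in YAP5SA and 105 in wild type for Plxnb3.

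The members, the pathway and marker lists and the alternatives were chosen with earlier results of these data known. Each member past the threshold is named with its libraries, and of the pathway list up to 10 in each direction with the smallest p. Alternatives were RLE and upper-quartile factors, DESeq2 1.42.0, limma-voom (limma 3.58.1), other filters, a replicate block, limma on log2 of the deposited FPKM with 0.1 or 1 added, the 8 fits without 1 library, and leaving out loci with several names.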

Additional observations from a re-analysis of the deposited data

Results flagged for a closer look

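Sema3c stood at 123.975 CPM in YAP5SA replicate 1, against 88.8 to 93.8 CPM in the other 3 YAP5SA libraries, a gap of 0.86 of the range of that group. Of 64 groups of 4 libraries checked over the member loci, this was the 1 with a library so far from the rest, and chance gives about 1 in 20 such groups. Without YAP5SA replicate 1 the log2 fold change of Sema3c was −0.56 (edgeR adjusted p = 9.02e-05), against −0.44 with all libraries. The same library held the highest Sema3e and Chl1 levels among the YAP5SA libraries.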

How the results depend on the processing

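Over the 32 member loci, 523 single-gene values under an alternative stayed on their side of the threshold, 40 lost a call and 13 gained one. Direction reversed in 0 of the values called in the main fit or in the alternative. Changes of sign where neither fit made a call were not counted. Limma on unfiltered log2(FPKM + 0.1) called 1525 loci in all. It left 0 ligands higher, 0 ligands lower, 0 receptors higher and 1 receptor lower (Plxnb3), and 4 pathway genes higher and 3 lower; there 23165 loci entered the adjustment. With the filter, limma called 2 ligands lower with 0.1 added and 2 with 1 added, since Sema4b (adjusted p = 0.0588) and Sema4c (0.109) were lost. Leaving out 1 library gave 3 to 5 ligands higher, 1 to 4 ligands lower, 1 to 4 receptors higher and 1 to 2 receptors lower, with fewest ligands lower without wild type replicate 2. The median log2 fold change of the receptors ranged from −0.0681 without YAP5SA replicate 3 to 0.0597 without wild type replicate 3. The replicate block called 3035 loci, added Sema4d (edgeR adjusted p = 0.00957) and Plxna3 (0.0409), and changed no other call of a member. In the pathway list it ended the calls of Itga1 (0.0701), Cntn2 (0.0578) and Nrcam (0.0758). The median of all loci moved by less than 0.02 under every scaling tried. Depth limits Plxnb3 most, with 7 to 20 fragments per YAP5SA library and 26 to 27 per wild type library.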
